A study of Rattus norvegicus with 10 samples.

Results

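Levels of 10 genes known from the intestinal epithelium were followed in RNA from pancreatic islets of BB and F344 rats: Lypd8, Si, Lgals4, Clca1, Tinag, Cdh17, Fabp2, Tff3, Vil1 and Slc26a3. They were 10 of the 14217 genes with a probe set annotated to 1 symbol, and they were measured by 11 of the 31042 probe sets tested, Clca1 having 2. They were chosen by name, with measured values of these arrays known. Which values were used is not recorded, so their levels and differences are given as a description, with no test.

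The study measured islet RNA of rats 40 days old on 10 Affymetrix arrays, 2 per group, labelled biological replicates. DR+/+ and JB rats are BB rats, diabetes resistant but inducible, with no mutation at the lyp locus. JBlyp/lyp rats are diabetes-prone BB rats homozygous for the lyp mutation. DR+/+ and JBlyp/lyp animals came from DRlyp/+ breeders, per the growth protocol, whereas the treatment protocol and the design text also write DRlyp/lyp; the sample titles are followed here. The labels do not say whether JBlyp/lyp and JB rats differ only at lyp, so in that comparison lyp and other strain differences cannot be told apart. F344lyp rats, given as lyp/lyp in the treatment protocol, are F344 rats that carry lyp, and F344 rats do not carry it. Both F344 groups are labelled healthy. The sample titles do not say whether F344lyp and F344 rats differ only at lyp. In that comparison too, and in the interaction, lyp and other strain differences cannot be told apart. Only male animals were used, per the protocol. lyp is a loss-of-function mutation of Gimap5 that leaves rats short of T cells. Islets were freed by collagenase injected into the pancreatic duct and purified on a gradient, a procedure that leaves some other pancreatic tissue. Nothing in the labels says whether an array holds 1 animal or a pool, so p-values measure only the spread between these samples, and 2 arrays per group limit their precision. In such bulk RNA, fewer cells of a type and less RNA per cell cannot be told apart.

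Enterocytes, the absorptive cells of the gut, carry a brush border of microvilli on which digestive enzymes and transporters sit, and goblet cells between them secrete mucus. HNF1, HNF4, CDX and GATA transcription factors drive many genes of these cells. Several of the genes are also used elsewhere: Vil1, the actin-bundling protein of microvilli, and Tff3 have also been found in pancreatic cells, and Tinag is a basement membrane protein of kidney tubules.

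Values are log2 intensities, and the median probe set of an array lay between 5.39 and 5.44. Beta cell genes were bright in every group: the median of 7 measured beta cell genes was 9.99 and 10.47 in DR+/+ arrays and lay between 12.15 and 12.72 in the other groups. Intestinal markers were seen only in part. Cdx1 and Cdx2, the homeobox factors that specify intestinal epithelium, lay between 3.58 and 4.23 and between 4.35 and 5.05 over all 10 arrays, below every array median. Fabp1, the fatty acid binding protein of liver and small intestine, lay between 4.09 and 4.71. The 10 genes are called intestinal here by their known use.

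Lypd8, Si, Lgals4, Clca1, Tinag and Cdh17 had their highest levels in F344lyp islets, at least 2 log2 units above F344 islets. Lypd8, a protein that keeps bacteria away from the colon lining in mice, read 7.73 and 7.63 in F344lyp islets, against 4.44 and 4.16 in F344 islets. It read 3.95 and 4.03 in DR+/+, 3.92 and 3.47 in JB, and 3.57 and 3.54 in JBlyp/lyp islets. The F344lyp arrays stood apart and the F344lyp-minus-F344 difference was 3.38 (SE 0.17), a 10.4-fold higher signal, where SE is the standard error of the difference in the limma fit.

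Si, sucrase-isomaltase, the brush border enzyme that cleaves sucrose, read 5.84 and 5.99 in F344lyp islets, against 2.88 and 2.90 in F344 islets. The BB arrays lay between 2.92 and 3.37, and the F344lyp-minus-F344 difference was 3.03 (SE 0.14). Tinag read 5.53 and 6.05 in F344lyp islets, against 3.08 and 2.90 in F344 islets, with the BB arrays between 2.56 and 3.01. Its difference was 2.81 (SE 0.18). Both genes lay among the dimmest probe sets outside F344lyp, where each was near the middle of the array. Si had a mean percentile of 56.4 in F344lyp and 3.52 in F344 islets, and Tinag 54.7 in F344lyp and 5.13 in F344 islets.

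Lgals4, a galectin that holds glycoproteins at the brush border, read 7.51 and 7.57 in F344lyp islets, against 5.20 and 5.14 in F344 islets. It read 4.94 and 4.96 in DR+/+, 4.16 and 3.85 in JB, and 4.10 and 4.01 in JBlyp/lyp islets, so that only the JB and JBlyp/lyp arrays overlapped. Its F344lyp-minus-F344 difference was 2.37 (SE 0.14).

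Clca1, a protein that goblet cells secrete into mucus, read 6.95 and 7.10 in F344lyp islets, against 5.03 and 4.63 in F344 islets. Its BB arrays lay between 4.08 and 4.85. The difference was 2.19 (SE 0.18) by that probe set and 0.95 (SE 0.17) by the dimmer one, which read 4.07 and 4.50 in F344lyp islets, against 3.44 and 3.23 in F344 islets, so the probe sets disagreed in size. Cdh17, the cadherin that joins neighbouring intestinal cells, read 6.84 and 7.05 in F344lyp islets, against 4.84 and 4.76 in F344 islets, a difference of 2.15 (SE 0.36). It was also high in DR+/+, at 6.43 and 5.92, against 4.17 and 4.55 in JB islets. In JBlyp/lyp islets it read 4.24 and 5.58, so that 1 array set that group's higher mean.

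Fabp2 and Tff3 showed smaller differences in the same direction. Fabp2, the intestinal fatty acid binding protein, read 3.99 and 3.91 in F344lyp islets, against 3.34 and 3.35 in F344 islets, and all 10 arrays lay below the array median. Tff3, the trefoil peptide secreted with mucus, read 8.23 and 8.08 in F344lyp islets, against 7.47 and 7.24 in F344 islets. It read 6.38 and 6.35 in DR+/+, 7.12 and 6.74 in JB, and 7.43 and 6.39 in JBlyp/lyp islets. In both genes the F344lyp arrays lay above the 8 others, as did those of 8 of the 10 genes, against 13% of all genes; since the choice may have used these values, nothing is read from that count.

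Slc26a3 and Vil1 followed another order. Slc26a3, the chloride-bicarbonate exchanger of the colon, read 8.10 and 8.05 in DR+/+ islets, against 3.39 and 3.38 in JB islets, a difference of 4.69 (SE 0.17) and a 25.8-fold higher signal. Its other arrays lay between 3.38 and 4.37, with F344lyp next at 4.37 and 4.29. Vil1 read 6.84 and 6.83 in DR+/+ islets, against 9.04 and 8.74 in JB islets, a difference of -2.06 (SE 0.17). It read 9.35 and 8.90 in JBlyp/lyp, 9.15 and 9.12 in F344lyp, and 8.70 and 8.56 in F344 islets, and the JBlyp/lyp and F344lyp arrays overlapped.

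**Figure D1:**
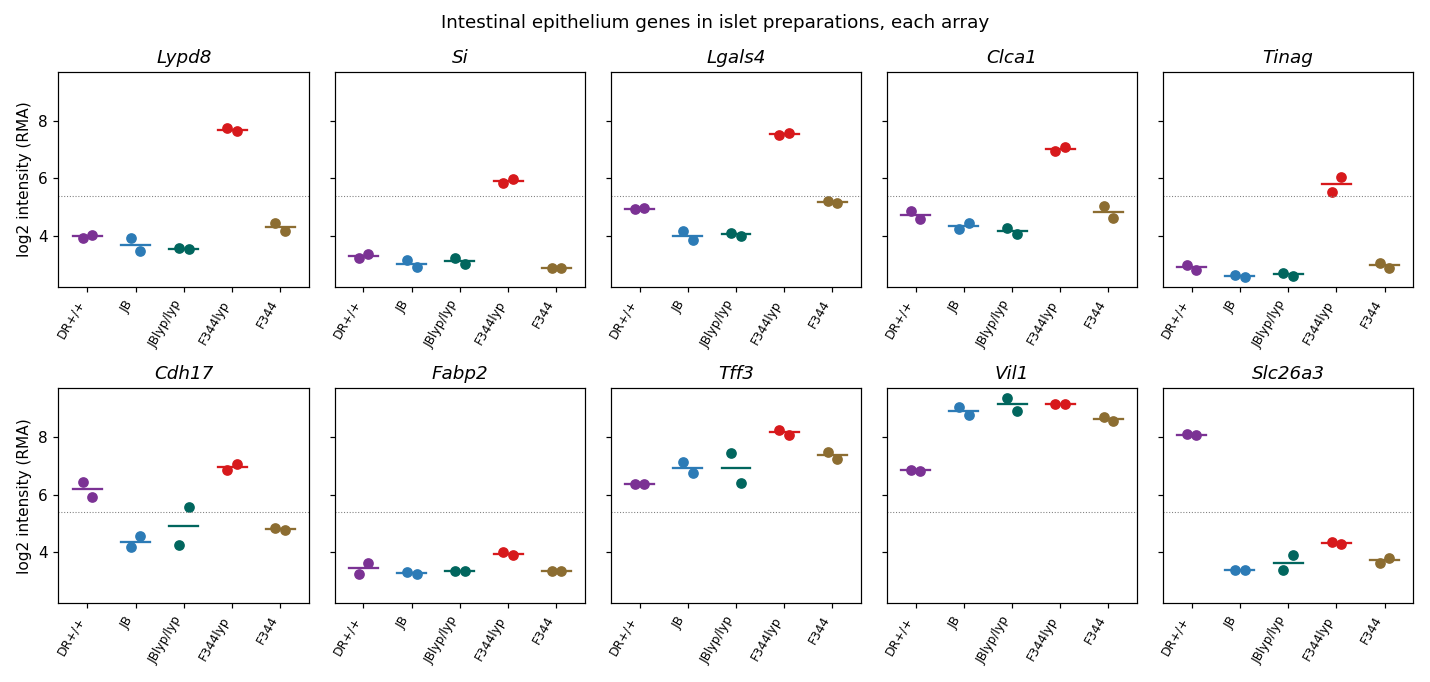
Each panel shows 1 gene: points are the 2 arrays of a group and bars the group mean, on the vertical axis the log2 intensity, with a dotted line at 5.4 near the array median. F344lyp points lie above all others for 8 genes, such as Lypd8 at 7.73 and 7.63, whereas Slc26a3 is highest and Vil1 lowest in DR+/+ islets.

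The promoters of Si, Lgals4, Tinag and Slc26a3, 250 bases before to 50 bases after the RefSeq start on GRCr8, are shown because the first 3 stood high in F344lyp and the last in DR+/+ islets, and because they hold the motif letters searched. Capitals mark matches, on either strand, of the short HNF1 motif GTTAAT, the HNF4 motif CAAAGTCCA, the CDX motif TTTATG, the GATA factor motif AGATAA and the TATA box letters TATAAA. In the Si promoter 2 TATA box matches, on opposite strands, overlap. Si lies at chr2:159884853-159885152 on the minus strand, Lgals4 at chr1:93252035-93252334 on the plus strand, Tinag at chr8:86765436-86765735 on the minus strand and Slc26a3 at chr6:53751165-53751464 on the plus strand. The Lgals4 stretch lies inside the gene, which spans 93248463 to 93260002, so its matches belong to a start other than the gene's first base.
Si: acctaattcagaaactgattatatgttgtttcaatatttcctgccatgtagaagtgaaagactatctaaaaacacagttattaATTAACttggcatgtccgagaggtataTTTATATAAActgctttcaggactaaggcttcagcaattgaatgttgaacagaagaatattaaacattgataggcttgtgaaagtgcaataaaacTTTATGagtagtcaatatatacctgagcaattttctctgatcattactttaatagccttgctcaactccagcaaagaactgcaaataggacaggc
Lgals4: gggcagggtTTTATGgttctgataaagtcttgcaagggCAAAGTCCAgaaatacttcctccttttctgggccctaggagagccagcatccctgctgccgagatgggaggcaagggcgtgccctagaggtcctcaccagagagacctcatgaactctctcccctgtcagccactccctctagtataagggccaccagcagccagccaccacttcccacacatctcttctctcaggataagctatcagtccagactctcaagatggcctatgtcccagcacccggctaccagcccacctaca
Tinag: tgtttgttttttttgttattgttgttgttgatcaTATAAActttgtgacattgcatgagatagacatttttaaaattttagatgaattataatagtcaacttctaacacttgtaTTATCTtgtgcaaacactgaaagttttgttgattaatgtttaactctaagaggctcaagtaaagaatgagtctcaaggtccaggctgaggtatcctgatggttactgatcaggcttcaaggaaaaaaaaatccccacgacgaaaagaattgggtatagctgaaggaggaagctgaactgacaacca
Slc26a3: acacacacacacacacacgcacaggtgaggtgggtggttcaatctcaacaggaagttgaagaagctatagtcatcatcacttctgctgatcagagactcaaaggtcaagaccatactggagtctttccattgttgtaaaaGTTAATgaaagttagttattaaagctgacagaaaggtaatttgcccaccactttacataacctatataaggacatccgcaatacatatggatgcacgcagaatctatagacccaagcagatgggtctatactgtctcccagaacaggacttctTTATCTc
Among 9 members with a promoter entry, GTTAAT occurred in 2 (Si and Slc26a3), against 7.45% of 33469 promoters, and CAAAGTCCA in 1 (Lgals4), against 0.391%. TTTATG occurred in 2 (Si and Lgals4), against 12.7%, AGATAA in 3 (Tinag, Fabp2 and Slc26a3), against 11.6%, and TATAAA in 3 (Si, Tinag and Tff3), against 14.2%. The full palindromic HNF1 site occurred in 0 of the 9, against 0.00299%. A match is only the presence of those letters.

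Beside these genes, a wider list of intestinal genes was measured in each comparison, 65 of 84 of them present on the array. That list too was chosen with earlier results of these data known, so its counts and p-values are no independent evidence. Between F344lyp and F344 islets, 11 of the 65 passed the test, all higher in F344lyp, against 1.9% of all genes called, 1.58% higher and 0.317% lower. Their median difference was 0.22, against 0.04 over all genes, and 47 of 65 lay above 0. Aqp8, a water channel, rose to 9.18 and 9.53 in F344lyp islets, against 6.87 and 6.47 in F344 islets, a difference of 2.68 (limma, adjusted p = 0.000114). It read 5.08 and 5.06 in JB and 4.54 and 4.72 in DR+/+ islets, the order that the acinar gene medians below also had. The part of acinar tissue in the Aqp8 signal was not tested. Apoa1, the apolipoprotein of HDL, differed by 2.27 (adjusted p = 0.000283). Muc2, the gel-forming mucin of goblet cells, rose to 7.36 and 7.40 in F344lyp islets, against 5.08 and 5.43 in F344 islets, a difference of 2.12 (adjusted p = 0.000215). Pla2g2a, a secreted phospholipase of Paneth cells, differed by 1.70 (adjusted p = 0.00103). The Gapdh 3' minus 5' difference was 2.20 and 2.19 in F344lyp and 2.43 and 2.35 in F344 arrays. Leaving out F344 replicate 1, F344 replicate 2 or F344lyp replicate 2 left 5, 4 and 5 calls.

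By gene group, 4 of 10 goblet and mucus genes rose in F344lyp islets, as did 3 of 13 transporters and 1 gene each of the 9 brush border enzymes, 9 lipid absorption genes, 6 Paneth and crypt genes and 7 transcription factors. None of 11 structure and adhesion genes passed, though 3 had an unadjusted p under 0.05. The goblet genes were Muc2, Fcgbp, Agr2 and Muc13; the last 3, chosen after their values were seen, differed by 1.18, 1.44 and 1.12. Cdx1 differed by -0.23 (adjusted p = 0.488), Cdx2 by 0.01 (adjusted p = 0.990), Fabp1 by 0.27 (adjusted p = 0.492) and Krt20, a keratin of the gut surface, by 0.22 (adjusted p = 0.592).

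**Figure D2:**
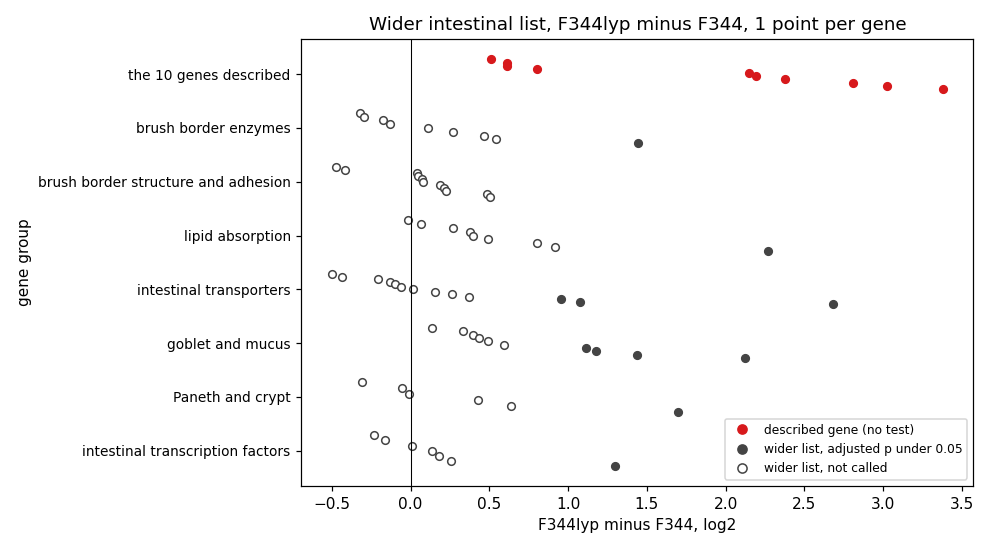
Each point is 1 gene, placed by its F344lyp minus F344 difference in log2 units and grouped by function; filled grey points passed the adjusted p threshold and red points are the 10 genes described, with no test. The described genes run from 0.51 to 3.38, and 4 of 10 goblet and mucus genes are filled against 0 of 11 structure genes.

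JBlyp/lyp minus JB differences of the 10 genes ran from -0.16 to 0.55, with a median of 0.05. The upper end was Cdh17, which came to -0.12 without JBlyp/lyp replicate 2. Of the wider list 0 of 65 were called in limma's fit, against 0.00703% of all genes, a share near the background. An unadjusted p under 0.05 was had by 6 of the 65, and by 1935 of all 31042 probe sets.

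The JBlyp/lyp minus JB difference was set against the F344lyp minus F344 difference by an interaction in the same fit. For the 10 genes it ran from -3.52 (Lypd8) to -0.28 (Vil1), each JBlyp/lyp minus JB difference being the lower one, and 0.478% of all genes passed. In the wider list 5 of 65 passed, all negative: Aqp8 by -2.66 (adjusted p = 0.00253), Apoa1 by -1.87 (adjusted p = 0.0185), Pla2g2a by -1.67 (adjusted p = 0.0203), Anpep by -1.66 (adjusted p = 0.0347) and Muc2 by -1.62 (adjusted p = 0.0187). Without F344 replicate 1, F344 replicate 2 or F344lyp replicate 2, 1 gene was left, and without JB replicate 2 or F344lyp replicate 1, 2 were. Aqp8 kept its call whichever single array was left out, and each of the other 4 genes lost it without at least 1 array. Other tissue markers, described below, had negative calls too: 2 of 24 acinar genes (Ptf1a by -2.79, Cuzd1 by -2.50) and 2 of 6 mesothelial genes. So did 1 each of 11 ductal, 8 stomach and 9 liver genes (Muc1, Tff2 and F2). Beta cell, other endocrine, kidney, smooth muscle and lymphoid genes had 0 calls.

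**Figure D3:**
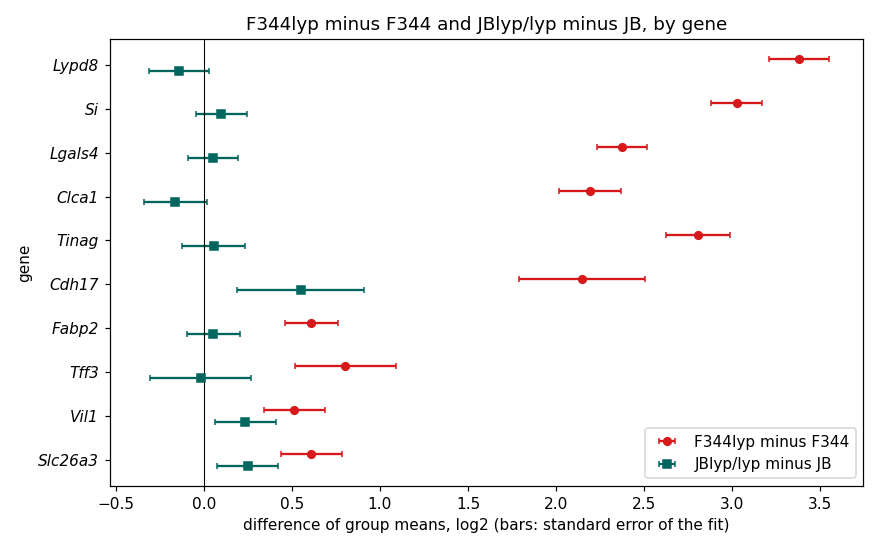
Points give the difference of group means in log2 units for each gene, F344lyp minus F344 as circles and JBlyp/lyp minus JB as squares, with bars for the standard error of the fit. F344lyp differences reach 3.38 for Lypd8, whereas all JBlyp/lyp differences lie between -0.16 and 0.55.

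The BB groups were also set against the F344 groups, over all 6 against all 4 arrays and within each lyp state; these comparisons share arrays. BB minus F344 differences ran from -2.24 (Lypd8) to 1.01 (Slc26a3), with a median of -1.13. Without the DR+/+ arrays, Slc26a3 came to -0.52 and Vil1, at -0.60 with them, to 0.13. JB minus F344 differences had a median of -0.40, and JBlyp/lyp minus F344lyp differences a median of -2.41. In the wider list, 24 of 65 passed between BB and F344 (5 higher, 19 lower), against 37.9% of all genes, a share near the background. The signal of the 3' minus the 5' Gapdh probe set, a measure of RNA integrity, was 2.75 to 3.71 in BB and 2.19 to 2.43 in F344 and F344lyp arrays. With it as a covariate 0 of the 65 passed. Since its values did not overlap between these arrays, the lost calls cannot tell RNA integrity from strain. In that fit Aqp8 differed by -3.44, Zg16 by -3.06, Apob by -2.10 and Anpep by -1.78. Of the 65, 10 passed with 2 group means and 7 with strain group as a random block. Between JB and F344 11 passed (4 higher, 7 lower), against 13% of all genes, and without F344 replicate 1 and replicate 2 there were 6 and 7. Between JBlyp/lyp and F344lyp 27 passed (4 higher, 23 lower), against 16%; 16 passed without JBlyp/lyp replicate 2 or F344lyp replicate 1, and 12 without F344lyp replicate 2. The 4 largest differences there were lower in JBlyp/lyp. Aqp8 differed by -4.27 (adjusted p = 9.78e-07) and Anpep, aminopeptidase N of the brush border, by -2.74 (adjusted p = 1.81e-05). Apob, the apolipoprotein of chylomicrons, differed by -2.47 (adjusted p = 0.000266), and Zg16, a granule protein that acinar cells also make, by -3.20 (adjusted p = 0.000564). The same 4 genes led between BB and F344, with Aqp8 at -3.09, Zg16 at -2.96, Apob at -2.28 and Anpep at -1.76 (limma, highest adjusted p = 2.48e-05, for Zg16). Between JB and F344, Zg16 differed by -2.12, Aqp8 by -1.60, Apob by -1.41 and Krt20 by -1.41 (highest adjusted p = 0.00671, for Apob), whereas Muc2 differed by -0.02 (adjusted p = 0.952). Acinar genes, described below, fell too: 24 of 24 were called lower between BB and F344, against 24.6% of all genes. Between JB and F344 21 of 24 were, against 8.22%, and between JBlyp/lyp and F344lyp 23 of 24, against 11.3%. Their median differences were -2.31, -1.40 and -2.30 in that order. The part of acinar tissue in these intestinal gene differences was not tested.

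Between DR+/+ and JB islets, 21 of 65 passed (13 higher, 8 lower), against 34% of all genes, a share near the background. Their median difference was -0.006, against -0.04 over all genes, and 31 of 65 lay above 0. Pla2g2a was higher by 2.62 (adjusted p = 8.49e-06), the peptidase Dpp4 by 1.77 (adjusted p = 0.000107), the cystine transporter subunit Slc7a9 by 1.62 (adjusted p = 7.12e-05) and Sytl2 by 1.57 (adjusted p = 2.08e-05). Krt20 was higher by 1.003 (adjusted p = 0.0021), and Muc2 differed by -0.34 (adjusted p = 0.144). Among the 8 lower genes were Ush1c at -1.19, Apob at -1.15 and Dgat1 at -1.10 (limma, highest adjusted p = 0.00659, for Apob).

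Other tissue markers moved beside these genes, in lists also chosen with earlier results of these data known. Of all genes, 34% were called between DR+/+ and JB islets, 15.5% higher and 18.4% lower. Between F344lyp and F344 islets 1.9% were called, 1.58% higher and 0.317% lower. The median of 24 acinar genes, which make digestive enzymes, was 13.31 and 13.67 in F344lyp islets, against 13.002 and 12.76 in F344 islets. By the adjusted p 4 of 24 rose (Ptf1a, Cuzd1, Spink1 and Gp2). All 24 differences lay above 0, with a median of 0.55, against 0.04 over all genes. An unadjusted p under 0.05 in limma was had by 11 of the 24, and by 4835 of all 31042 probe sets. In DR+/+ islets the acinar median was 9.75 and 9.83, against 11.90 and 11.10 in JB islets, with 18 of 24 lower. Mesothelial genes, of the lining around abdominal organs, had a median of 9.94 and 10.13 in DR+/+ islets, against 6.68 and 6.45 in JB islets. Of these 6 genes 5 rose and 1 fell: Msln read 10.91 and 10.99 in DR+/+ islets, against 13.005 and 12.88 in JB islets. The mesothelial median stood at 7.09 and 7.50 in F344lyp islets, against 6.00 and 5.93 in F344 islets, and 3 of 6 rose. Ductal genes had a median of 7.91 and 8.10 in DR+/+ islets, against 6.51 and 6.32 in JB islets, with 7 of 11 higher; in F344lyp against F344 islets 2 of 11 rose and 1 fell. Of 7 beta cell genes 6 fell in DR+/+ against JB islets, and of 6 other endocrine genes 2 rose and 4 fell.

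In F344lyp against F344 islets, 1 of 8 stomach genes rose (Tff2, by 2.10), 2 of 9 liver genes rose and 1 fell, and 2 of 7 lymphoid genes fell (Cd3d and Cd8a, T cell genes). Kidney (7 genes) and smooth muscle (8 genes) had 0 calls by limma, with 2 and 1 at an unadjusted p under 0.05; kidney medians lay between 3.72 and 4.27 over all arrays. Beta cell (7) and other endocrine genes (6) had 0 calls, with 0 and 1 at that unadjusted level. The part of these markers in the intestinal gene differences was not tested.

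**Figure D4:**
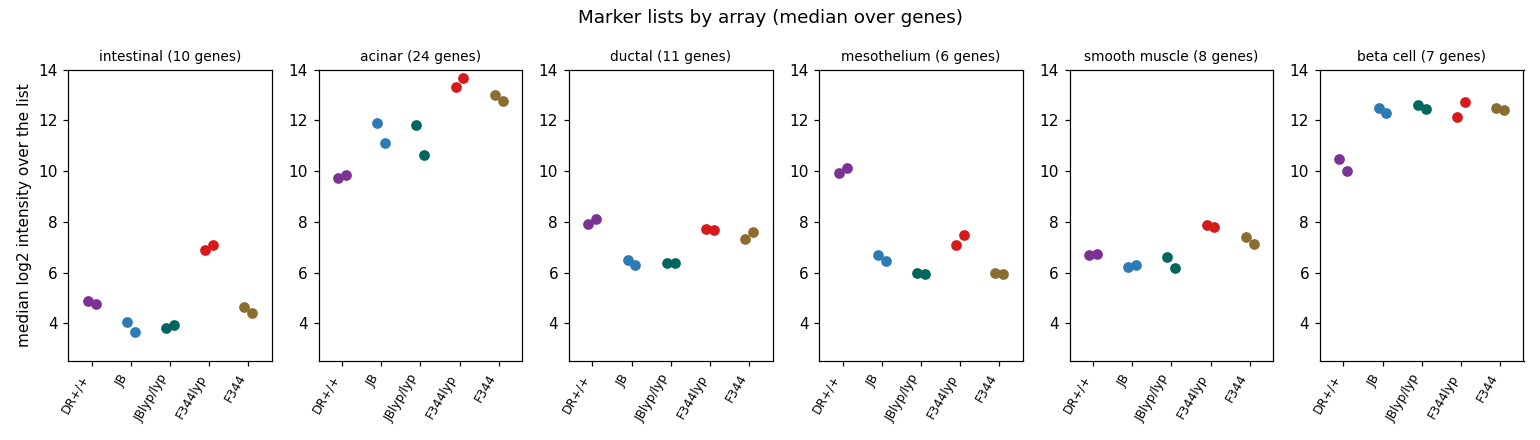
Each panel shows the median log2 intensity over 1 gene list in every array, by group. The 10 intestinal genes peak in F344lyp islets at 6.90 and 7.07, acinar genes also peak there at 13.31 and 13.67, and mesothelial genes peak in DR+/+ islets at 9.94 and 10.13.

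The genes lay on 8 chromosomes of GRCr8, none of them chromosome 4, which holds Gimap5. Their 20 nearest neighbours on the array had a median F344lyp minus F344 difference of 0.04, and 3 were at least 1: Clca4 (1.43) and Clca2 (1.98), which flank Clca1, and Tff2, which lies next to Tff3.
The genes most alike to the mean centred profile of the 10, among 7026 non-members whose values spanned at least 1 log2 unit, were, by Pearson r over the 10 arrays, Duox2 (0.988), Tex30 (0.983), Ptger3 (0.975), Reg3g (0.973) and Hsd3b1 (0.973), followed by Kctd14, Pecr, Cma1, Dpep1 and Bdh2 down to 0.965; this is a description over arrays that share their groups.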

How the data were processed

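Islet RNA of 5 rat groups was measured on 10 Affymetrix arrays, and the deposited values are log2 intensities. The submitters' processing notes name GCOS and RMA as what the authors used, without versions or settings. RMA normalizes arrays together, which fixes each array's median (5.39 to 5.44) and compresses low levels. Of 31099 probe sets, 57 controls were left out. Symbols came from GEO's platform annotation: 20826 probe sets had 1 symbol, 436 several and 9780 none; the brightest probe set stood for a gene.

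limma 3.58.1 in R 4.3.3 fitted 1 mean per group and 7 contrasts (eBayes, 2-sided, Benjamini-Hochberg over 31042 probe sets, threshold 0.05). It was tested on simulated data. Named in each comparison were every member, Cdx1, Cdx2, Muc2, Fabp1, Krt20 and the 4 called genes of the wider list with the largest difference whose arrays did not overlap; not all are repeated in the text. The members and lists were chosen with earlier results of these data known. Tests of members had been planned in 4 comparisons (F344lyp against F344, JBlyp/lyp against JB, DR+/+ against JB and the interaction); their p-values are not printed, since the choice may have used those values. Alternatives were normalization, trend, a dim-probe filter, the probe set per gene, a replicate block, a strain block, RNA quality, omitting DR+/+ and omitting each array. Sequences and positions are RefSeq's (GRCr8).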

Additional observations from a re-analysis of the deposited data

Results flagged for a closer look

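In 5 genes of the wider intestinal list, the difference of JBlyp/lyp from JB and that of F344lyp from F344 differed by the interaction term of the limma fit over all probe sets. The first minus the second was -2.66 for Aqp8, -1.87 for Apoa1, -1.67 for Pla2g2a, -1.66 for Anpep and -1.62 for Muc2. Aqp8 kept its call whichever single array was left out. The other 4 did not: without F344 replicate 2 the adjusted p was 0.154 for Apoa1, 0.159 for Pla2g2a, 0.250 for Anpep and 0.0565 for Muc2. Each gene was higher in both F344lyp arrays than in both F344 arrays. Negative calls were not confined to intestinal genes: 2 of 24 acinar and 2 of 6 mesothelial genes had them, against 0.478% of all genes called. With 2 arrays in a group, no array could be judged as standing apart from its own group.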

How the results depend on the processing

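Of the values of the 10 genes under the alternatives, 958 were labelled as moved by less than the replicate spread, 71 as moved by more and 5 as reversed in sign. The 5 labelled reversed included Vil1 (0.13) and Slc26a3 (-0.52) between BB and F344 without the DR+/+ arrays. The others were Fabp2 between DR+/+ and JB without DR+/+ replicate 2 (omitting 1 array gave -0.042 to 0.34), and Cdh17 (-0.12 to 1.22) and Slc26a3 (-0.0052 to 0.50) between JBlyp/lyp and JB without JBlyp/lyp replicate 2. Small differences outside that label also changed sign when 1 array was left out, such as Tff3 (-0.019 with all arrays) and Lypd8 (-0.14) between JBlyp/lyp and JB. Probe sets called between BB and F344 numbered 10300, and 3518 with 2 group means, 959 with strain group as a random block and 8 with the Gapdh 3' minus 5' difference as covariate; calls in the wider list, 24 in the first fit, numbered 10, 7 and 0. That covariate moved the members' median to -0.94. Its values did not overlap between BB and F344 arrays, so calls lost with it cannot tell RNA integrity from strain. Keeping only probe sets brighter than the median, which left 2 members and 21 wider genes, gave wider list calls of 14 between BB and F344, 6 (of 11) between F344lyp and F344 and 13 (of 27) between JBlyp/lyp and F344lyp. It gave 265 calls (of 468) between F344lyp and F344 and 50 (of 88) in the interaction. It gave member medians of -0.81 between BB and F344, -0.080 between JB and F344, -0.63 between JBlyp/lyp and F344lyp, 0.66 between F344lyp and F344, -0.55 in the interaction and, with the sign turned, -1.31 between DR+/+ and JB. The median over probe sets of a gene gave 1.86, -2.06 and -1.63 for F344lyp against F344, JBlyp/lyp against F344lyp and the interaction. With the replicate block, 745 probe sets were called between F344lyp and F344 and 5 (of 1) between JBlyp/lyp and JB, where eBayes with trend gave 3. Deviations of same-numbered replicates correlated by 0.65 between JBlyp/lyp and JB and from -0.10 to 0.24 between other groups. With 2 numbers and no label that ties them to a shared animal, litter or day, they were not taken as pairs; with the block, 0 of 65 wider list genes were called between JBlyp/lyp and JB, as without it. The causes were not tested.

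Leaving out 1 array at a time gave 6742 to 11310 calls between BB and F344, 6148 to 9903 between DR+/+ and JB, 58 to 823 between F344lyp and F344, 879 to 4751 between JB and F344, 1404 to 5482 between JBlyp/lyp and F344lyp, 0 to 4 between JBlyp/lyp and JB and 18 to 130 in the interaction. Wider list calls ran, in the same order, from 17 to 25, 14 to 23, 4 to 11, 6 to 11, 12 to 28, 0 to 0 and 1 to 5. Member medians ran from -1.24 to -1.08, 0.20 to 0.37, 2.05 to 2.29, -0.47 to -0.30, -2.70 to -2.32, -0.0047 to 0.19 and -2.26 to -1.84. With 2 arrays per group, a lone array is taken to vary like the others. Low intensities limit what Si and Tinag show outside F344lyp and what Fabp2 shows in every group. Slc26a3 in JB (mean percentile 12.3) and Lypd8 in JB (18.8) and JBlyp/lyp (16.6) were dim too, so fold values set against those groups are uncertain in size.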
